A study of Homo sapiens with 2 samples.

Results

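The mucin family was read in AsPC-1, a human cell line from pancreatic ductal adenocarcinoma (PDAC), on the array labelled PGR siRNA (the siPGR-labelled array) against that labelled control (the control-labelled array). Members were the 10 mucin genes MUC1, MUC2, MUC4, MUC5AC, MUC5B, MUC6, MUC13, MUC16, MUC17 and MUC20, taken by gene symbol through each probe set annotated to that symbol alone. All 10 had such a probe set, 27 probe sets in all, of 19775 genes on the arrays. Both groups were AsPC-1 cells, which the labels place in DMEM with fetal bovine serum (a medium other than that in the study's methods), transfected with a control siRNA in the group titled As.Ctrl or with siRNA against PGR, the progesterone receptor, in the group titled As.si.PGR. The methods of the study give a transfection of 48 h and list 2 PGR siRNA duplexes without saying which was used for the array. There was 1 array per condition and 1 cell line, so that no test, standard error or p-value could be had, and every difference compares these arrays only.

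Mucins are large glycoproteins whose tandem repeats, rich in serine, threonine and proline, carry dense O-linked glycans. MUC2, MUC5AC, MUC5B and MUC6 are secreted and polymerise into mucus gels, whereas MUC1, MUC4, MUC13, MUC16, MUC17 and MUC20 are classed here as membrane-bound. In the pancreas, MUC1 marks the apical surface of ducts, and MUC5AC and MUC4, scarce in normal ducts, appear in precursor lesions and PDAC. MUC16 carries the CA125 antigen used as a serum marker.

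The deposited values were linear intensities, 1 per probe set and array. The signal floor used here was 97.9, the median of all values of probe sets with 1 gene symbol, and a value below it was taken to give no usable level. Both PGR probe sets lay below that floor. The brighter read 16.1 on the control-labelled array and 73.3 on the siPGR-labelled array, and the other read 1.53 and 4.80, an order that goes against the labels. Below the floor, that order gives no usable direction of PGR. Neither the knockdown nor the labels could be checked by the targeted gene. Directions below therefore rest on the labels. Summed intensities of the 10 ductal epithelial markers were 136231 on the control-labelled array and 142340 on the siPGR-labelled array. By gene, 2 were higher and 8 lower on the siPGR-labelled array, with a median log2 difference of -0.049. The brightest, KRT18, read 48572 on the control-labelled array and 55425 on the siPGR-labelled array. All 10 reached the floor, CEACAM6 on the control-labelled array alone. Of acinar and islet markers, 0 of 3 and 0 of 3 with a probe set reached it. Among 7 fibroblast, 3 leukocyte and 4 endothelial markers with a probe set, 3, 1 and 1 reached it. ACTA2 and COL1A1 reached it on both arrays, with differences of 0.016 and -0.0038 on the log2 scale, and the others on the control-labelled array alone.

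Of the 27 mucin probe sets, 7 reached the floor on both arrays, 2 on a single array and 18 on neither. Those 9 belonged to 6 genes. They were the membrane-bound MUC1, MUC13, MUC17 and MUC20 and the gel-forming MUC5AC and MUC6. MUC2, MUC4, MUC5B and MUC16 had no probe set at the floor on either array. Over all 19775 genes, 58.7% reached the floor by their brightest probe set. Differences are given as log2(intensity + 1), labelled PGR siRNA minus labelled control, and the offset of 1 understates the differences of dim probe sets. Because there were no replicates, each difference is set beside the differences of the 1000 named probe sets nearest to it in mean signal, a description of the scatter between these arrays that holds no error between cultures.

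**Figure D1:**
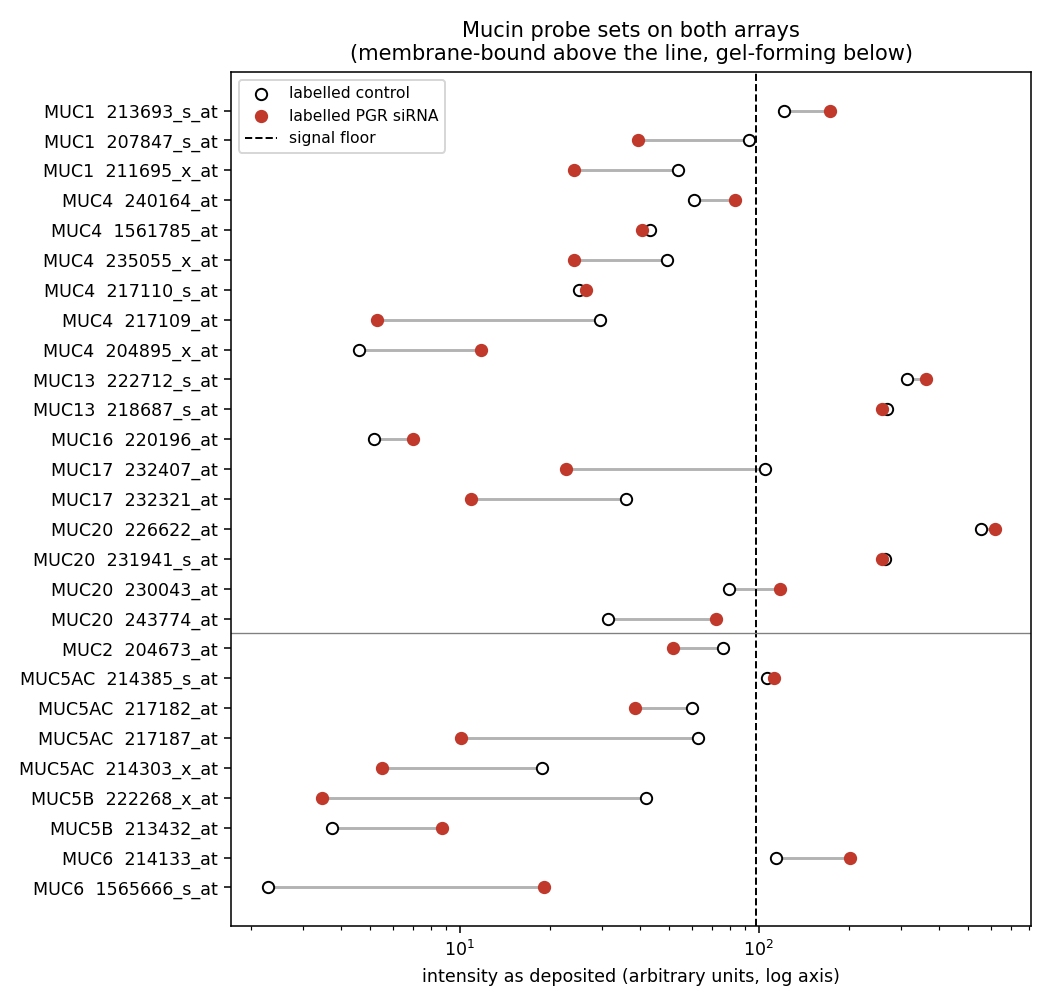
Deposited intensity (arbitrary units, log axis) of each mucin probe set on the control-labelled array (open circles) and the siPGR-labelled array (filled circles), joined by a grey line, with the signal floor of 97.9 dashed. MUC13 and the upper MUC20 probe sets lie right of the floor on both arrays, and 18 of 27 probe sets lie left of it on both.

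MUC20 and MUC13 reached the floor on both arrays by 2 probe sets each, and none of these differed by 1.5-fold. Here and below, RNA from fewer expressing cells and less RNA per cell cannot be told apart. MUC20, a membrane mucin known to bind the receptor MET, read 554 on the control-labelled array and 616 on the siPGR-labelled array by the probe set 226622_at. The difference of 0.15 stood at percentile 73.2 of probe sets of like signal, whose SD was 0.27. A second MUC20 probe set, 231941_s_at, read 265 and 258, a difference of -0.037. These bright readings of MUC20 were thus of opposite sign and both small. The probe set 230043_at read 79.7, below the floor, and 118, which gives an intensity at least 1.20-fold higher on the siPGR-labelled array. The last, 243774_at, read 31.3 and 72.0, below the floor on both. RefSeq lists a pseudogene, MUC20P1, on the same chromosome 3 as MUC20, and whether it adds to these readings was not tested.

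MUC13, a membrane mucin with EGF-like domains found in gastrointestinal epithelium, read 313 on the control-labelled array and 364 on the siPGR-labelled array by 222712_s_at, a difference of 0.22. Its other probe set, 218687_s_at, read 268 and 258, a difference of -0.054. MUC13 was the only member with all its probe sets past the floor on both arrays, and they differed in sign. Both values lay near the middle of the scatter, at percentiles 75.2 and 44.3.

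MUC1, whose cytoplasmic tail takes part in receptor tyrosine kinase and beta-catenin signalling, was read by 3 probe sets that did not run the same way. The brightest, 213693_s_at, read 122 on the control-labelled array and 174 on the siPGR-labelled array, a difference of 0.51 at percentile 89.3, under 1.5-fold. The probe set 207847_s_at read 92.9 and 39.4, a difference of -1.22 at percentile 7.2. The probe set 211695_x_at read 53.7 and 24.1, a difference of -1.12 at percentile 16. The only MUC1 probe set past the floor of 97.9 was therefore higher on the siPGR-labelled array, and both dim ones were lower. That reading depends on the floor. With a lower floor of 74.8, an alternative used here, 207847_s_at also passed, by its control value of 92.9 alone. The MUC1 probe sets past that lower floor differed in sign, so that they gave no single direction of MUC1. The suffix _s_at marks a probe set whose probes match several transcripts, and _x_at one with probes similar to other sequences.

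The progesterone receptor is a transcription factor that binds inverted repeats with the arm TGTTCT, which reads AGAACA on the other strand, letters it shares with the glucocorticoid and androgen receptors. MUC1 and MUC13 were the members past the floor on both arrays with a RefSeq promoter window, and their 250 bases before the start are shown to compare a window that holds the arm with one that does not, with matches on either strand in capitals. The windows are those of GRCh38.p14, chr1:155192916-155193165 for MUC1 and chr3:124934752-124935001 for MUC13, both on the minus strand and printed in the direction of transcription.
MUC1: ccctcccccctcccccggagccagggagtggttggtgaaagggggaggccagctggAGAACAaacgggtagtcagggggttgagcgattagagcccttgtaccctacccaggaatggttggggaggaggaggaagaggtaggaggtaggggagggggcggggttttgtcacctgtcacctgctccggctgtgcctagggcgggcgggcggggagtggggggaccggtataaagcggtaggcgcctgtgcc
MUC13: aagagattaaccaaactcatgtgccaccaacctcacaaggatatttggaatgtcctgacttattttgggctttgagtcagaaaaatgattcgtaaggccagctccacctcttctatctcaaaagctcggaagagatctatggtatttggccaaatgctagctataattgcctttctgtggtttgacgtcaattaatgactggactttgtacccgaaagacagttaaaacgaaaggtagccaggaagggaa
MUC1 held 1 match, with its first base 194 bases before the start, and MUC13 held 0. Of 6 members with a window (MUC1, MUC2, MUC4, MUC13, MUC16 and MUC17), MUC1 alone held the arm, against 12.4% of 27305 windows of the same length, the first listed for each gene. The MUC1 window was 66.0% G and C and the MUC13 window 41.6%. The letters are a description of the sequence, and binding was not measured on these arrays.

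MUC17, a mucin of the intestinal brush border, read 105 on the control-labelled array and 22.7 on the siPGR-labelled array by 232407_at, a difference of -2.16. It was the only one of the 27 mucin probe sets outside the middle 95% of probe sets of like signal, at percentile 1.3. The middle 95% leaves out the remaining share of probe sets by construction. A count of 1 in 27 is near that share and is no result about MUC17. The difference of -2.16 cannot be read as the size of a change. The control value lay just above the floor and the other below it, so that the intensity was at least 1.07-fold lower once its dim value was set to the floor. The other probe set, 232321_at, read 35.96 and 10.9, a difference of -1.64, below the floor on both arrays and at percentile 24.4. Both MUC17 probe sets were thus dimmer on the siPGR-labelled array, and 1 of these 4 values reached the floor. In RefSeq order, MUC17 follows MUC3A and MUC12 on chromosome 7. The brighter MUC3A probe set, 217117_x_at, read 174 and 173, and the brighter MUC12 probe set read 17.8 and 2.94, below the floor.

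MUC4, a membrane mucin that binds ERBB2, had 6 probe sets, the most of any member, and each was below the floor on both arrays. Their intensities ran from 4.59 to 83.3. The brightest, 240164_at, read 60.7 and 83.3, a difference of 0.45, and 3 of the 6 were higher and 3 lower on the siPGR-labelled array, from -2.28 to 1.20. MUC16 was read by a single probe set, 220196_at, at 5.16 and 6.98. No level or direction of MUC4 or MUC16 could be had from these arrays at the floor of 97.9. At the lower floor of 74.8, MUC4 passed by 240164_at on the siPGR-labelled array alone, and MUC16 did not pass. MUC4 and MUC20 are neighbours on chromosome 3, and MUC20 alone reached the floor of 97.9.

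The gel-forming genes MUC6, MUC2, MUC5AC and MUC5B lie side by side on chromosome 11, with 1 predicted gene between MUC6 and MUC2. MUC6, the mucin of gastric glands, read 114 on the control-labelled array and 202 on the siPGR-labelled array by 214133_at, a difference of 0.82, at percentile 97.4 of probe sets of like signal, whose SD was 0.45. It was the only member past the floor on both arrays that differed by at least 1.5-fold. Its other probe set, 1565666_s_at, read 2.28 and 19.2, of the same sign but far below the floor. Only 214133_at thus had usable signal for MUC6, and it read higher on the siPGR-labelled array. Its difference lay just inside the middle 95% of the scatter, which ran from -0.96 to 0.82.

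MUC5AC, the mucin of the gastric surface, was read near the floor. The probe set 214385_s_at read 107 and 112, a difference of 0.075. The other 3 MUC5AC probe sets reached the floor on neither array and were lower on the siPGR-labelled array, at -0.62, -1.61 and -2.51. The lowest of these, 217187_at, read 62.5 and 10.1 and stood at percentile 6.10. MUC5AC therefore differed little by its only probe set with usable signal on both arrays. MUC2, the gel of intestinal goblet cells, read 76.0 and 51.5 by its only probe set, a difference of -0.55. MUC5B, a gel-forming mucin of the airways, read 42.0 and 3.47 by 222268_x_at and 3.73 and 8.73 by 213432_at, of opposite sign. Neither MUC2 nor MUC5B gave a usable level at the floor of 97.9. At the lower floor of 74.8, MUC2 passed by its control value alone.

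Read by the brightest probe set and with any dim value set to the floor, 1 of the 6 mucin genes that reached the floor, MUC6, was at least 1.5-fold higher on the siPGR-labelled array, beside 2.23% of 11614 genes, and 0 were at least 1.5-fold lower, beside 2.63%. With dim values taken as deposited, which gives no usable size for MUC17, MUC6 counted as higher and MUC17 as lower, beside 3.65% and 4.72% of genes. At 2-fold on those deposited values, 0 counted as higher and MUC17 as lower, beside 1.11% and 1.58%. With both values past the floor, 1 of 5 mucin genes was at least 1.5-fold different, beside 4.17% of 10840 genes in either direction. Counts of 1 gene are too few to set against these shares. The median difference was 0.18 over the 6 genes and 0.22 over the 5 genes with both values at the floor, beside 0.021 and 0.023 over all genes. It was -0.26 over the 6 genes when each gene was taken as the mean over its probe sets, dim ones included.

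By probe set, 13 of the 27 were higher on the siPGR-labelled array and 14 lower. Of the 18 below the floor on both arrays, 12 differed by at least 2-fold, 4 higher and 8 lower, beside 44.4% of 19569 such probe sets in either direction. Of the 7 past the floor on both, 0 differed by 2-fold, beside 0.496% of 19569. The large differences of the family therefore lay in probe sets without usable signal, MUC17 by 232407_at being the exception with 1 value at the floor. Of the 8 mucin genes with over 1 probe set, 6 had probe sets of both signs, as had 64.1% of 10523 genes. MUC6 and MUC17 were the other 2.

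**Figure D2:**
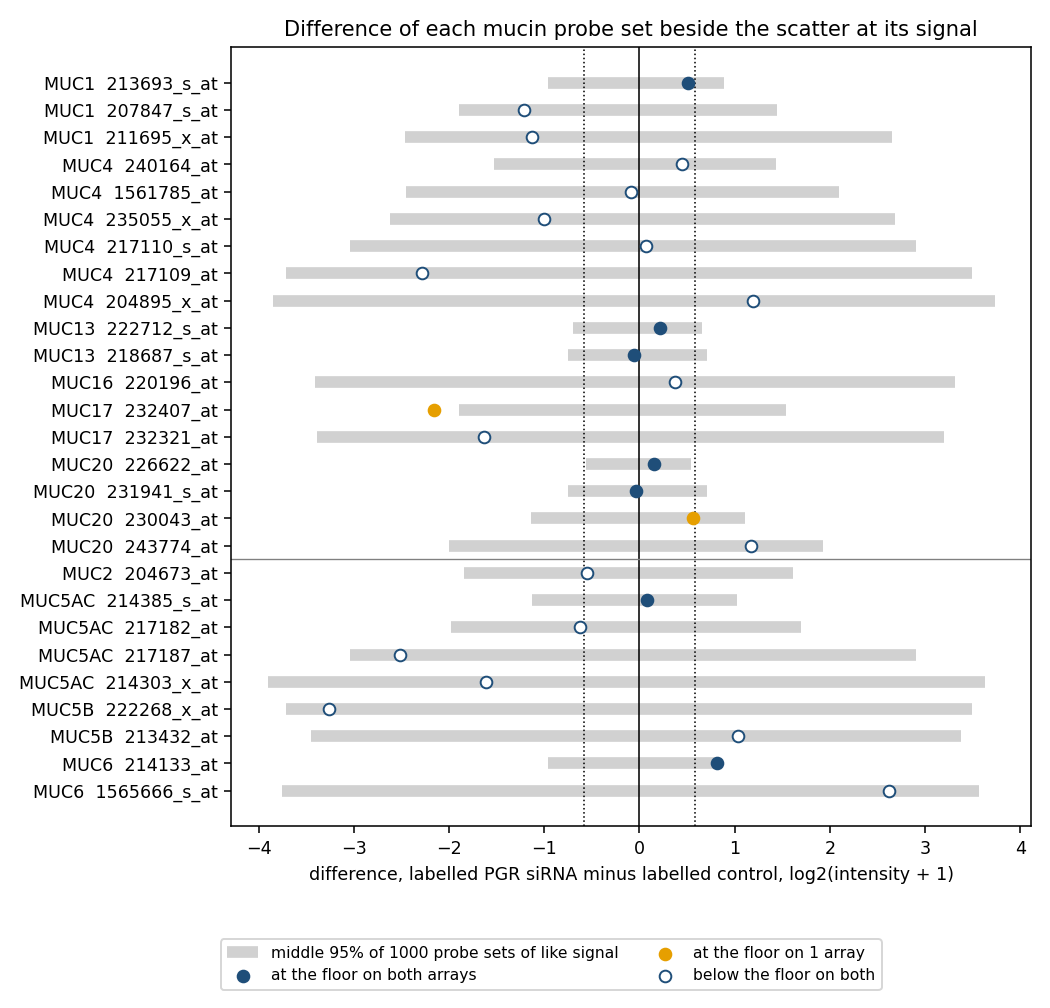
Difference of each mucin probe set (labelled PGR siRNA minus labelled control, log2(intensity + 1)) as points, coloured by whether its values reach the signal floor, with the middle 95% of the 1000 probe sets nearest in mean signal as grey bars and 1.5-fold as dotted lines. The bars widen toward dim probe sets, and 232407_at of MUC17, at -2.16, is the only point outside its bar. The middle 95% leaves out the remaining share by construction, and 1 of 27 points is near that share.

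The genes that build, secrete and sense mucins were read by the same rules. None of these lists was tested. Their medians are set beside 0.021 over all 11614 genes, and their counts at 1.5-fold, with dim values set to the floor, beside 2.23% of genes higher and 2.63% lower. Counts of 0 or 1 gene are too few to set against these shares. The list of other mucins also held sialomucins and other glycoproteins. Of 12 with a probe set, 5 reached the floor (MUC3A, CD164, MCAM, OVGP1 and PARM1). Of these, 0 differed by 1.5-fold, and the median was -0.0063. CD164, a sialomucin of endosomes and the cell surface, read 6180 on the control-labelled array and 5960 on the siPGR-labelled array. PARM1, a mucin-like membrane protein, read 3936 and 4441, a difference of 0.17. OVGP1, an oviduct glycoprotein, was at 0.028, and MCAM, a melanoma adhesion molecule, at -0.51 with only its control value past the floor.

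GalNAc transferases start mucin-type glycosylation by adding N-acetylgalactosamine to serine or threonine. Of 19 with a probe set, 9 reached the floor, 0 were at least 1.5-fold higher and 1 was at least 1.5-fold lower, with a median of 0.035. GALNT7 and GALNT3 were the brightest, at -0.010 and 0.022. GALNT18 was the lower member, at -0.73 with 179 on the control-labelled array and 107 on the other. The mean over its 2 probe sets, of which 1 reached the floor, was -0.23. GALNT1 was at -0.073. GALNT11 and GALNT12 had the highest values, 0.24 and 0.18.

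Of 28 genes of O-glycan extension and capping, 20 reached the floor, with 0 at least 1.5-fold higher, 1 at least 1.5-fold lower and a median of 0.050. ST3GAL1, which adds sialic acid to the core disaccharide, read 67.2, below the floor, and 129, an intensity at least 1.32-fold higher on the siPGR-labelled array. GAL3ST2, a sulfotransferase of galactose, read 157 and 54.5, at least 1.60-fold lower. FUT4, a fucosyltransferase, was at 0.55, and a second probe set past the floor stood at -0.0035. B3GNT2, which extends poly-lactosamine, was at 0.49, with another at -0.026. ST3GAL2 was at -0.57, and its probe sets past the floor ran from -0.82 to 0.16. C1GALT1C1, the chaperone of the core synthase, was at 0.070.

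Of 19 mucous cell and trefoil genes, 8 reached the floor and 11 did not. Each of the 8 had a difference above 0, beside 53.2% of 11614 genes, with a median of 0.32, and 0 were at least 1.5-fold different. That count held at this floor. At the lower floor of olfactory receptor probe sets, 74.8, it was 8 of 9, with CTSE, a gastric aspartic protease, at -0.57, and with no floor it was 11 of 19. AGR2, a protein disulfide isomerase needed for mucin folding in the secretory pathway, read 19753 on the control-labelled array and 27208 on the siPGR-labelled array. Its difference of 0.46 stood at percentile 99.4 of probe sets of like signal, and its other probe set gave 0.54, both under 1.5-fold. The trefoil peptide TFF1 read 333 and 468, a difference of 0.49. TFF2 was at 0.089, TFF3 at 0.13 and CFTR, the chloride channel of ducts, at 0.18. REG4, a secreted lectin, read 62.8, below the floor, and 120, an intensity at least 1.23-fold higher on the siPGR-labelled array. With its dim value set to the floor the median of the 8 was 0.24. Without REG4, the 7 genes past the floor on both arrays had a median of 0.18. Taken as means over all probe sets of a gene, 6 of the 8 were above 0 and the median was 0.14.

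Among 19 transcription factors tied to mucin genes, 15 reached the floor, 0 were at least 1.5-fold higher and 1, FOXA2, was at least 1.5-fold lower, with a median of -0.027. CDX1, an intestinal homeobox factor, read 146 and 47.6, at least 1.49-fold lower on the siPGR-labelled array. FOXA2, an endodermal factor, was at -0.60 with both values past the floor, but another of its probe sets past the floor gave 1.05. GATA6, an endodermal zinc finger factor, read 6875 and 5205, a difference of -0.40 at percentile 1.80. HIF1A was at 0.059, STAT3 at 0.31 and FOXA3 at 0.21. Of 13 measured partners and sheddases of mucins, 0 passed 1.5-fold in either direction, and the median was -0.062. LGALS3, a galectin that binds MUC1 and MUC16, was at 0.035 and CTNNB1, the gene of beta-catenin, which binds the MUC1 tail, at -0.020. MET was at -0.28, with probe sets from -0.88 to 0.44, and MMP14, a membrane protease, at -0.43. SRC was at 0.36 and the scaffold NHERF1 at 0.30. MSLN, a ligand of MUC16, was below the floor on both arrays, as was MUC16.

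**Figure D3:**
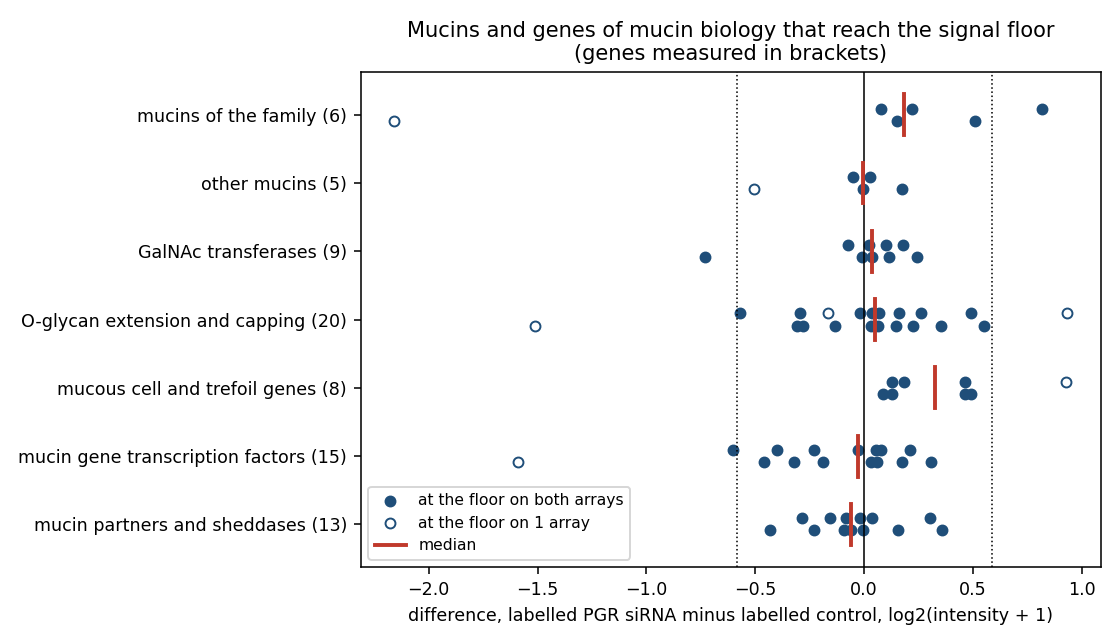
Difference (labelled PGR siRNA minus labelled control, log2(intensity + 1)) of each gene that reaches the signal floor, read by its brightest probe set, for the mucin family and 6 lists of mucin biology, with filled points past the floor on both arrays, open points past it on 1, medians in red and 1.5-fold as dotted lines. The 8 mucous cell and trefoil genes lie right of 0, and the 6 mucins run from -2.16 for MUC17 to 0.82 for MUC6.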

How the data were processed

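Total RNA of AsPC-1 cells was converted to biotin-labelled cRNA for a 3' expression array, with 1 array for each condition. Intensity values on a linear scale were deposited by the authors, scaled to a common level. Trimmed means (2% from either end) were 500.1 and 500.1, and the summary algorithm and scaling are not given in the sources used here. Detection calls were not used here.

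Values were taken as log2(intensity + 1). Of 54675 probe sets, 41097 had 1 gene symbol in the platform annotation. The others (1801 with several symbols and 11777 without one) were not used. Symbols were brought up to date by gene identifier to RefSeq (GRCh38.p14) for 41043 probe sets. For each gene the brightest probe set by mean signal was taken, and the gene was counted if its higher value reached the floor. With 1 array per condition no test was run, 1.5-fold on the log2 scale was the rule of size, and precision is limited by the number of arrays.

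Named were each member with all its probe sets, PGR, and from each list the measured genes with the 2 highest and 2 lowest differences and the 2 brightest. MUC3A, MUC12, CEACAM6, KRT18, ACTA2, COL1A1, MSLN and CTSE were named after their values were seen. Members and lists were chosen with earlier results of these data known. Alternatives were the mean of probe sets, other scalings, offset, floors and folds, and the same settings for the lists, and dim values set to the floor, both added after the data were seen. The calculation was tested on simulated data. Promoter windows are from RefSeq, GRCh38.p14. Tools were matplotlib 3.10.9, scipy 1.17.1, pandas 2.3.3 and numpy 2.4.6 under Python 3.11.15.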

Additional observations from a re-analysis of the deposited data

How the results depend on the processing

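The median of the mucin family stayed positive, between 0.18 and 0.25, under median centring, quantile normalization, loess, an offset of 16, the floor of olfactory receptor probe sets, no floor, the floor on both values and dim values set to the floor, and turned to -0.26 when probe sets of a gene were averaged. The count of 2 mucin genes at least 1.5-fold different became 4 when probe sets were averaged (1 higher, MUC6 at 1.72, and 3 lower, MUC5AC at -1.17, MUC1 at -0.61 and MUC17 at -1.90) and 1 with both values at the floor or dim values set to it (0 lower), or at 2-fold (0 higher). Setting the dim value to the floor moved MUC17 from -2.16 to -0.096. Without a floor the lower genes were 2, MUC17 and MUC5B. Averaging takes in values below the floor by construction. The 24 values of single mucin genes under the 3 other scalings and the offset moved by less than the SD of probe sets of like signal. Averaging moved 4 of 6 by more than that and changed the sign of MUC5AC and MUC1. A floor cannot change a gene's brightest probe set, so the other floors give no check of single values. The floor of olfactory receptor probe sets, 74.8, counted 8 mucin genes, with MUC2 and MUC4 added. The floor at the 75th percentile, 623, left 0 mucin genes and gives no value. No paired analysis was possible because each condition had 1 array. Median centring raised the median of all genes from 0.021 to 0.088. It turned the median of the other mucins to 0.060, of the transcription factors to 0.039 and of the partners to 0.0039, and quantile normalization and loess turned that of the other mucins to 0.013 and 0.028. Floors also turned medians, to 0.061 at the 75th percentile and 0.011 with both values at the floor for the other mucins, and to 0.032 and 0.0025 for the transcription factors. Averaging probe sets turned the GalNAc transferases to -0.047, the O-glycan genes to -0.015, the other mucins to 0.044 and the transcription factors to 0.020. Over all settings, the mucous cell and trefoil median ran from 0.12 to 0.39 and those of the other 5 lists from -0.54 to 0.13.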
